A study of Mus musculus with 14 samples.

Results

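Genes of macrophages and of complement C1q were examined in whole olfactory epithelia of mouse pups at postnatal day 5 (P5). The 10 genes were taken by their symbols from a list that was chosen with earlier results of these data known. They were C1qa, C1qb, C1qc, Csf1r, Cx3cr1, Trem2, Tyrobp, Aif1, Cd68 and Adgre1, out of 51211 gene symbols measured in both experiments. RNA was sequenced from 14 mice, 1 library per mouse. In the Kir2.1 experiment, 3 mice carrying OMP-IRES-tTA and tetO-Kir2.1-IRES-tauLacZ (called Kir2.1 mice here) were compared with 3 littermate control mice heterozygous for OMP-IRES-tTA, so both groups carried the tTA allele. In the PEA experiment, 4 wild type mice exposed to phenylethylamine (PEA, an odorant) from P0 to P5 were compared with 4 wild type mice that were not exposed. The sample labels name C57BL/6 as the strain of all 14 mice, while the methods name CD-1 for the PEA experiment, and the labels write Kir2.1-Off for the Kir2.1 mice although no doxycycline is described for mice taken at P5. The tTA is made from the Omp locus, which is active in mature olfactory sensory neurons, so macrophages are not the cells in which the transgene is driven.

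C1q starts the classical complement pathway. Its A, B and C chains, encoded by C1qa, C1qb and C1qc, assemble into a hexamer of trimers that binds the serine proteases C1r and C1s, and it tags debris, dying cells and synapses for uptake. In most tissues its chains are made mainly by macrophages and, in brain, by microglia. Csf1r is the receptor for the survival factors Csf1 and Il34, Cx3cr1 is the receptor for the neuronal chemokine Cx3cl1, and Trem2 is a lipid receptor that signals through the adaptor Tyrobp. Aif1 encodes the actin-binding protein IBA1, Cd68 encodes a lysosomal membrane protein, and Adgre1 encodes the surface receptor F4/80. The olfactory epithelium renews its neurons throughout life, and resident macrophages clear the neurons that die.

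The 3 C1q genes lie side by side on the minus strand of chromosome 4 (GRCm38, GENCODE vM21), C1qb at 136880129 to 136886187, C1qc at 136889804 to 136893065 and C1qa at 136895917 to 136898803. RefSeq promoter sequence (GRCm38.p6) was found for 6 of the 10 genes, C1qb, C1qc, Cx3cr1, Cd68, Aif1 and Trem2. The motif GAGGAA, the core bound by the myeloid factor PU.1 (encoded by Spi1), was searched on both strands of the 250 bases before each start site, where its reverse complement reads TTCCTC. It was found in 5 of the 6 (not in Cx3cr1) and in 7639 of 32851 promoter windows of the same length (23.3%). A match is a string of letters and not a measured binding site. Of these windows 3 are given with the motif in capitals, 1 from the C1q cluster, 1 from the lysosomal gene Cd68 and 1 from the lipid receptor gene Trem2, chosen because each lies wholly outside the annotated transcripts of its gene. They are C1qb (chr4:136886201-136886450, minus strand, motif starting 30 bases before the start site), Cd68 (chr11:69666171-69666420, minus strand, 225 bases before) and Trem2 (chr17:48346151-48346400, plus strand, 40 bases before and on the other strand).
C1qb: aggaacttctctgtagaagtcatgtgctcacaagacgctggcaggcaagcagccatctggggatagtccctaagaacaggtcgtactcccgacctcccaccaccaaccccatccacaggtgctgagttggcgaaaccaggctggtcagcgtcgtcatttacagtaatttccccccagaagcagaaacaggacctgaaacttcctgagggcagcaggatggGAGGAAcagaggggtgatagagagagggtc
Cd68: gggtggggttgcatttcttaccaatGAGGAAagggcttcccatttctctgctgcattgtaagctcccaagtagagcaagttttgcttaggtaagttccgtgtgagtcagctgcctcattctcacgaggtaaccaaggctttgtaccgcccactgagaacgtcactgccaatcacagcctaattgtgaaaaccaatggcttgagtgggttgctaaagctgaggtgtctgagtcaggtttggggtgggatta
Trem2: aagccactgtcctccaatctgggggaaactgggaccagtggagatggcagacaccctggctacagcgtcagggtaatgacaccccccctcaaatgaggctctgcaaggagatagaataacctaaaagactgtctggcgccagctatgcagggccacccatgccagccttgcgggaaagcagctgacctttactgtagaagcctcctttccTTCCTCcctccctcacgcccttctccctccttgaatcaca

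The deposited values are normalized counts, gene totals estimated by Salmon and scaled by the authors with DESeq2, so the number of reads behind each value is unknown. They summed to between 33049111 and 34198478 per mouse in the Kir2.1 experiment and to between 11476120 and 12467331 in the PEA experiment. Each experiment was tested on its own with limma on log2(normalized count + 1) over all genes with a mean of at least 10, with Benjamini-Hochberg adjustment over 19807 and 17322 genes. Fold changes are on that log2 scale, which understates changes of low values. Nothing says that the mice of a group came from separate litters, and the p-values measure only the spread between these mice. Kcnj2, which encodes Kir2.1, was at 1111 ± 148 in control mice and at 20216 ± 3457 in Kir2.1 mice (SD, n = 3 per group). Vomeronasal receptor genes set some mice apart, with a mean log2 value of 6.06 in Kir2.1 control mouse 1 against 2.35 to 2.45 in the other 5 mice of that experiment, and with 5.77, 4.68, 3.91 and 1.38 in the PEA control mice against 5.33, 1.66, 1.38 and 1.38 in the PEA-exposed mice. With a covariate for these genes no macrophage or C1q gene passed an adjusted p of 0.05 in either experiment.

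All 10 genes were detected in all 14 mice and passed the filter on low values in both experiments. Their summed value was between 2335 and 3683 per mouse in the Kir2.1 experiment, which is 69.4 to 108 ppm of the sum of all values, and between 620 and 912 in the PEA experiment, 52.5 to 73.2 ppm. Other defining macrophage and leukocyte genes varied in level. Lyve1, Folr2, Cd163 and Siglec1, also on the resident macrophage list, were near the filter in Kir2.1 control mice, with means of 12.4, 14.4, 11.97 and 13.8. In PEA control mice Lyve1 and Cd163 had means of 27.4 and 21.7. Folr2 and Siglec1 had means of 6.31 and 3.61 there and did not pass the filter in that experiment. Mrc1, the mannose receptor, had a mean of 186 in Kir2.1 control mice and 467 in PEA control mice, and Ptprc, the pan-leukocyte phosphatase CD45, had means of 78.8 and 114. Timd4, which marks long-lived resident macrophages, did not pass the filter in either experiment, with group means from 0.268 to 1.02, and the microglial receptor P2ry12 was low, at 23.6 in Kir2.1 control mice and 33.7 in PEA control mice. In bulk tissue, fewer cells of a type and less RNA per cell cannot be told apart.

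Each value was divided by the length of the longest protein-coding transcript of its gene. The genes were ordered by their mean level on that scale, and most neighbours in that order overlapped. Tyrobp, the adaptor, stood first in both experiments, at 740 ± 116 normalized counts per kb over the 6 mice of the Kir2.1 experiment and 167 ± 32.7 over the 8 mice of the PEA experiment (SD), and its lowest mouse exceeded the highest mouse of the next gene. In the Kir2.1 experiment C1qb (334 per kb), Cd68 (314), C1qa (250), C1qc (223) and Csf1r (207) followed, and neighbours in that order overlapped. A gap then separated Csf1r from Aif1 (75.8 per kb), and another separated Trem2 (64.0) from Adgre1 (39.5), while Adgre1 did not differ from Cx3cr1 (37.0) beyond their spread. In the PEA experiment C1qa came second (56.0 per kb), followed by Csf1r (48.1), C1qb (39.5), Adgre1 (33.9), C1qc (32.4), Aif1 (31.2), Cd68 (29.0), Cx3cr1 (19.8) and Trem2 (10.7), and only Tyrobp was separated from its neighbour. Trem2 was the lowest of the 10 there, and the mean of its value over the 8 mice lay at percentile 2.07 of all genes tested.

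**Figure D1:**
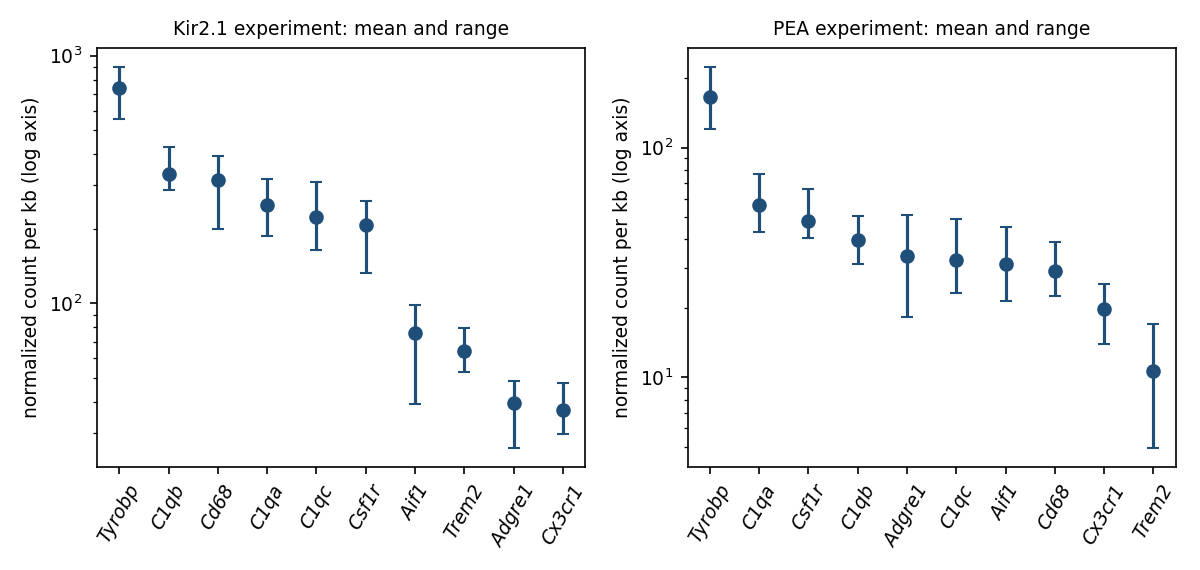
Level of each gene as normalized count per kb of its longest protein-coding transcript, on a log axis, ordered from high to low in each experiment. Points are means over all mice (6 in the Kir2.1 experiment, 8 in the PEA experiment) and bars run from the lowest to the highest mouse. Tyrobp stands above the rest in both, and most neighbours further down overlap.

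The genes did not keep the same proportions in the 2 experiments. The ratio of Adgre1 to Csf1r was between 0.114 and 0.158 in the 6 mice of the Kir2.1 experiment and between 0.310 and 0.869 in the 8 mice of the PEA experiment. In control mice, Adgre1 made up 3.76 ± 1.10 ppm of the sum of all values in the Kir2.1 experiment and 9.45 ± 1.20 in the PEA experiment, while C1qb made up 10.05 ± 0.458 and 3.63 ± 0.640 (SD, n = 3 and n = 4). Poly-A selection and 40 bp unstranded reads were used in the Kir2.1 experiment, ribosomal RNA depletion and 150 bp stranded reads in the PEA experiment, and the strain may differ too. Library type, strain and experiment cannot be told apart, and no test was made between the tables.

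Silencing of the neurons by Kir2.1 was the first comparison. None of the 10 genes passed an adjusted p of 0.05 (limma with Benjamini-Hochberg adjustment, adjusted p from 0.476 to 0.973), against 70 of 19807 genes (0.353%), and none had an unadjusted p under 0.05, against 11.1% of all genes tested. All 10 fold changes were nevertheless above 0, from 0.06 to 0.41 with a median of 0.20, where 51.2% of all genes tested were above 0 and the median over all genes was 0.0056. All 10 intervals (95%) lay within 1 log2 unit of 0, so a doubling or halving of any of the 10 was outside its interval. The groups did not overlap in 1 of the 10, Tyrobp, with every Kir2.1 mouse above every control mouse, which 7.26% of all genes tested also showed.

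Among the C1q chains, C1qa had the largest fold change of the 10. Control mice 1 to 3 had normalized counts of 262, 195 and 213, and Kir2.1 mice 1 to 3 had 325, 236 and 331. Kir2.1 mice 1 and 3 exceeded all controls and Kir2.1 mouse 2 lay within them (log2 fold change 0.41 ± 0.18 SE, limma adjusted p = 0.476). C1qb was 347, 339 and 327 in control mice and 465, 312 and 389 in Kir2.1 mice. The controls were close together here, with a coefficient of variation of 2.87%, and Kir2.1 mouse 2 was the lowest of all 6 mice (log2 fold change 0.18 ± 0.15 SE). C1qc was 273, 249 and 198 in control mice and 372, 201 and 313 in Kir2.1 mice, again with Kir2.1 mouse 2 inside the range of the controls (log2 fold change 0.27 ± 0.24 SE). The sum of the 3 chains was accordingly 1163, 749 and 1033 in Kir2.1 mice 1 to 3, against 882, 783 and 738 in the control mice, and Kir2.1 mouse 2 was the one that overlapped.

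The receptors and the adaptor differed in how far the controls spread. Csf1r, on chromosome 18 (61100598 to 61132149), was 867, 622 and 1223 in control mice and 1104, 1041 and 988 in Kir2.1 mice, so all Kir2.1 mice lay inside the range of the controls (log2 fold change 0.26 ± 0.22 SE). Cx3cr1, on chromosome 9 (119901616 to 120069879), was 133, 163 and 172 in control mice and 213, 143 and 174 in Kir2.1 mice, and the groups overlapped (log2 fold change 0.17 ± 0.19 SE). Trem2, on chromosome 17 (48346401 to 48354147), was 76.3, 69.6 and 57.3 in control mice and 62.5, 65.8 and 86.4 in Kir2.1 mice, and only Kir2.1 mouse 3 exceeded the controls (log2 fold change 0.07 ± 0.22 SE). Tyrobp, through which Trem2 signals, was the gene without overlap. It lies on chromosome 7 (30413760 to 30417585) and was 430, 333 and 426 in control mice and 539, 488 and 436 in Kir2.1 mice (log2 fold change 0.30 ± 0.14 SE, 95% interval -0.03 to 0.63, limma adjusted p = 0.495). By the exact two-sided permutation test over mice its p was 0.1, the smallest that 3 mice against 3 can give, so this design cannot reach 0.05 for a single gene by that test.

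The structural and surface markers overlapped between the groups. Aif1 (chromosome 17, 35170991 to 35176068) was 78.2, 34.2 and 86.6 in control mice and 50.4, 63.3 and 85.2 in Kir2.1 mice, with a coefficient of variation of 42.4% among the controls (log2 fold change 0.07 ± 0.39 SE). Cd68 (chromosome 11, 69664213 to 69666153) was 381, 245 and 456 in control mice and 397, 484 and 351 in Kir2.1 mice (log2 fold change 0.22 ± 0.24 SE). Adgre1 (chromosome 17, 57358691 to 57483527) was 137, 84.6 and 158 in control mice and 154, 119 and 115 in Kir2.1 mice (log2 fold change 0.06 ± 0.26 SE). In each of these control mouse 2 was the lowest of all 6 mice. That mouse was the lowest of the experiment for 6 of the 10 genes, and its values lay on average at -0.36 from the mean of the 6 mice on the log2 scale. Without it the fold changes of Aif1, Cd68 and Adgre1 were -0.34, -0.034 and -0.20, so the count of 10 genes above 0 rests in part on that control mouse.

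**Figure D2:**
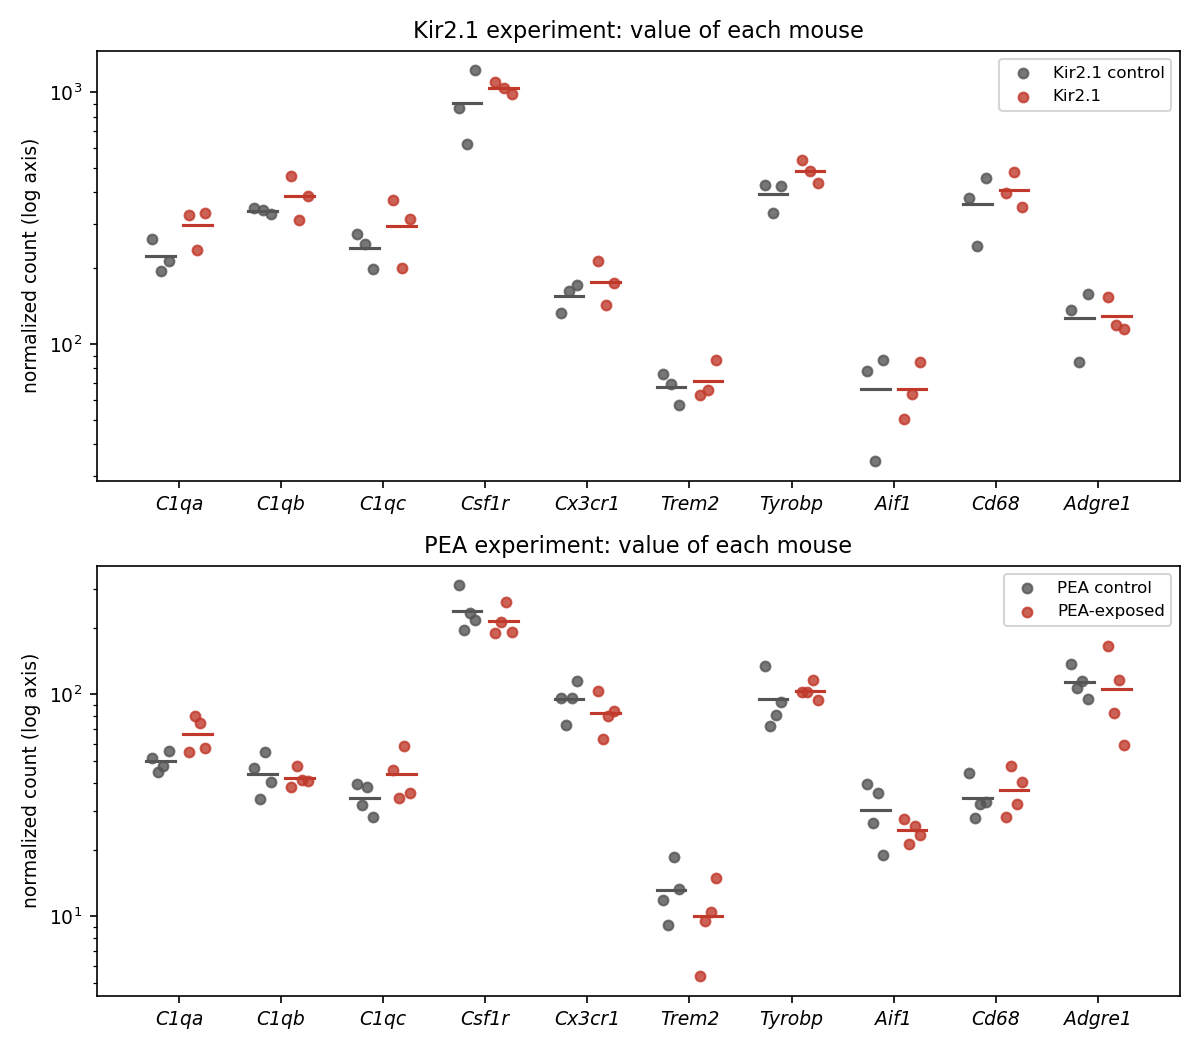
Normalized count of each of the 10 genes in every mouse, on a log axis, with the Kir2.1 experiment above and the PEA experiment below. Grey points are control mice, red points are Kir2.1 or PEA-exposed mice, and horizontal bars are group means (n = 3 per group above, n = 4 per group below). Tyrobp in the Kir2.1 experiment is the one gene whose groups do not overlap, and the control mouse at the bottom of the Csf1r, Aif1, Cd68 and Adgre1 columns is Kir2.1 control mouse 2.

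Downstream of C1q, 1 gene of the complement pathway passed the test. C1s1, which encodes the protease C1s that C1q binds, rose in Kir2.1 mice. Its values were 382, 346 and 253 against 105.6, 123 and 135 in the controls (2.65-fold, log2 fold change 1.41 ± 0.19 SE, limma adjusted p = 0.0417). It lies on chromosome 6 (124530345 to 124542359), minus strand. Every Kir2.1 mouse lay well above every control mouse, but the call is a narrow one. When single mice were left out, the adjusted p ran from 0.0401 to 0.179 and was above 0.05 in 5 of the 6 cases, while the log2 fold change stayed between 1.28 and 1.58. The call was also lost with the vomeronasal covariate (limma adjusted p = 0.157), with the Xist covariate (0.0878) and by limma without a trend (0.119). Its neighbouring copy C1s2 (124624625 to 124636085), which could share reads with it, was low, at 7.32 to 19.0 in control mice and 6.65 to 13.9 in Kir2.1 mice. C1ra, the partner protease, was singled out after its values were seen. It was 228, 209 and 231 in control mice and 346, 287 and 301 in Kir2.1 mice, with no overlap, and did not pass (log2 fold change 0.48 ± 0.12 SE, adjusted p = 0.210). Serping1, the inhibitor of both proteases, was 1045 ± 33.4 and 1124 ± 51.6 (SD over 3 mice each; log2 fold change 0.10 ± 0.08 SE).

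Over the whole complement list, 29 of 36 genes were tested in this experiment, 1 rose (C1s1), none fell, and the median log2 fold change was 0.20. In 5 of the 29 every Kir2.1 mouse was above every control mouse, against 7.26% of all genes tested. C3, the central component, was 131, 114 and 189 in control mice and 410, 317 and 133 in Kir2.1 mice, and Kir2.1 mouse 3 lay within the controls (log2 fold change 0.87 ± 0.41 SE, limma adjusted p = 0.508). C4b, cleaved by C1s, was 97.8 ± 39.5 and 157 ± 57.1 (SD over 3 mice each; log2 fold change 0.68 ± 0.39 SE). Cd55, a membrane inhibitor of complement activation, went the other way, at 4734 ± 466 in control mice and 3280 ± 77.4 in Kir2.1 mice, and just missed the threshold (log2 fold change -0.53 ± 0.08 SE, adjusted p = 0.069). C7, of the membrane attack complex, and Vsig4, a macrophage receptor for C3 fragments, were listed at 0 in all 6 mice.

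The list of ligands and regulators of Csf1r, Cx3cr1 and Trem2 also held genes that are neither, such as Clec7a and Spp1. Of its 27 genes, 23 were tested in the Kir2.1 experiment, and none passed an adjusted p of 0.05 by limma. Of the 23, 6 had an unadjusted p under 0.05 (11.1% over all genes), all with higher values in Kir2.1 mice. The median log2 fold change was 0.24. Csf1, a ligand of Csf1r, was 260, 217 and 455 in control mice and 506, 493 and 458 in Kir2.1 mice. The groups did not overlap but nearly met, at control mouse 3 and Kir2.1 mouse 3 (log2 fold change 0.72 ± 0.26 SE, adjusted p = 0.358). Il34, the other ligand, was low and overlapped (29.1 ± 13.5 and 27.8 ± 16.0, SD, n = 3 per group), and Cx3cl1, the ligand of Cx3cr1, was level at 1171 ± 162 and 1171 ± 266. Spi1, which encodes PU.1, was 183 ± 60.2 and 207 ± 44.8. The smallest p-values on this list were those of Lpl, a lipoprotein lipase (830 ± 164 and 1218 ± 119, adjusted p = 0.238), and Clec7a, a fungal glucan receptor (16.3 ± 5.08 and 39.6 ± 9.87, adjusted p = 0.238).

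Other genes used as markers of resident macrophages did not pass either. Of 26, 25 were tested, 23 had fold changes above 0 (51.2% over all genes), none passed an adjusted p of 0.05 by limma, 3 had an unadjusted p under 0.05 (11.1% over all genes), and the median was 0.31. The smallest p-values were those of Pf4, a chemokine (93.4 ± 12.7 and 138 ± 21.1, SD, n = 3 per group), and Mpeg1, which encodes a pore-forming protein of phagocytes (200.4 ± 10.9 and 288 ± 57.4). The most abundant of the list, Lgmn, a lysosomal protease that other cells also make, had a fold change of -0.12.

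Markers of other cell types were read beside these values, and 1 of them, Omp, passed the test. All 6 erythroid genes tested had fold changes above 0 (51.2% over all genes). Of these, 5 had an unadjusted p under 0.05 by limma (11.1% over all genes). The median of the 6 was 0.86. The erythroid summed value was 11074 to 20036 in control mice and 20323 to 33743 in Kir2.1 mice. The medians were 0.52 for 7 bone and cartilage genes, whose sum reached 11661 in control mouse 3 against 4649 and 4253 in the other controls and 8464 to 8972 in Kir2.1 mice, 0.27 for 12 pan-leukocyte genes, 0.40 for 4 monocyte genes, 0.21 for 6 neutrophil genes, 0.26 for 5 dendritic cell genes, 0.89 for 4 lymphocyte genes, 0.28 for 8 osteoclast genes, 0.30 for 7 endothelial genes and 0.23 for 7 olfactory ensheathing genes. None of these genes passed an adjusted p of 0.05 by limma. The 8 genes of mature olfactory sensory neurons all had fold changes below 0, with a median of -0.40 and a summed value of 115840 to 129560 in control mice and 84967 to 96532 in Kir2.1 mice, and 1 of them, Omp, fell from 33338 ± 2501 to 22010 ± 1319 (SD over 3 mice each; limma adjusted p = 0.0466). The medians were -0.09 for 7 sustentacular genes, 0.12 for 18 phagosome and lysosome genes and 0.25 for 8 microglia-enriched genes. The 1 mast cell gene tested, Hdc, was at -0.05. Its mean was 2172 in control mice, where Tpsb2, the next highest of that list, was at 7.93. Whether Hdc marks mast cells here was not tested. The part of these other cell types in the values of the macrophage, C1q and C1s1 genes was not tested.

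**Figure D3:**
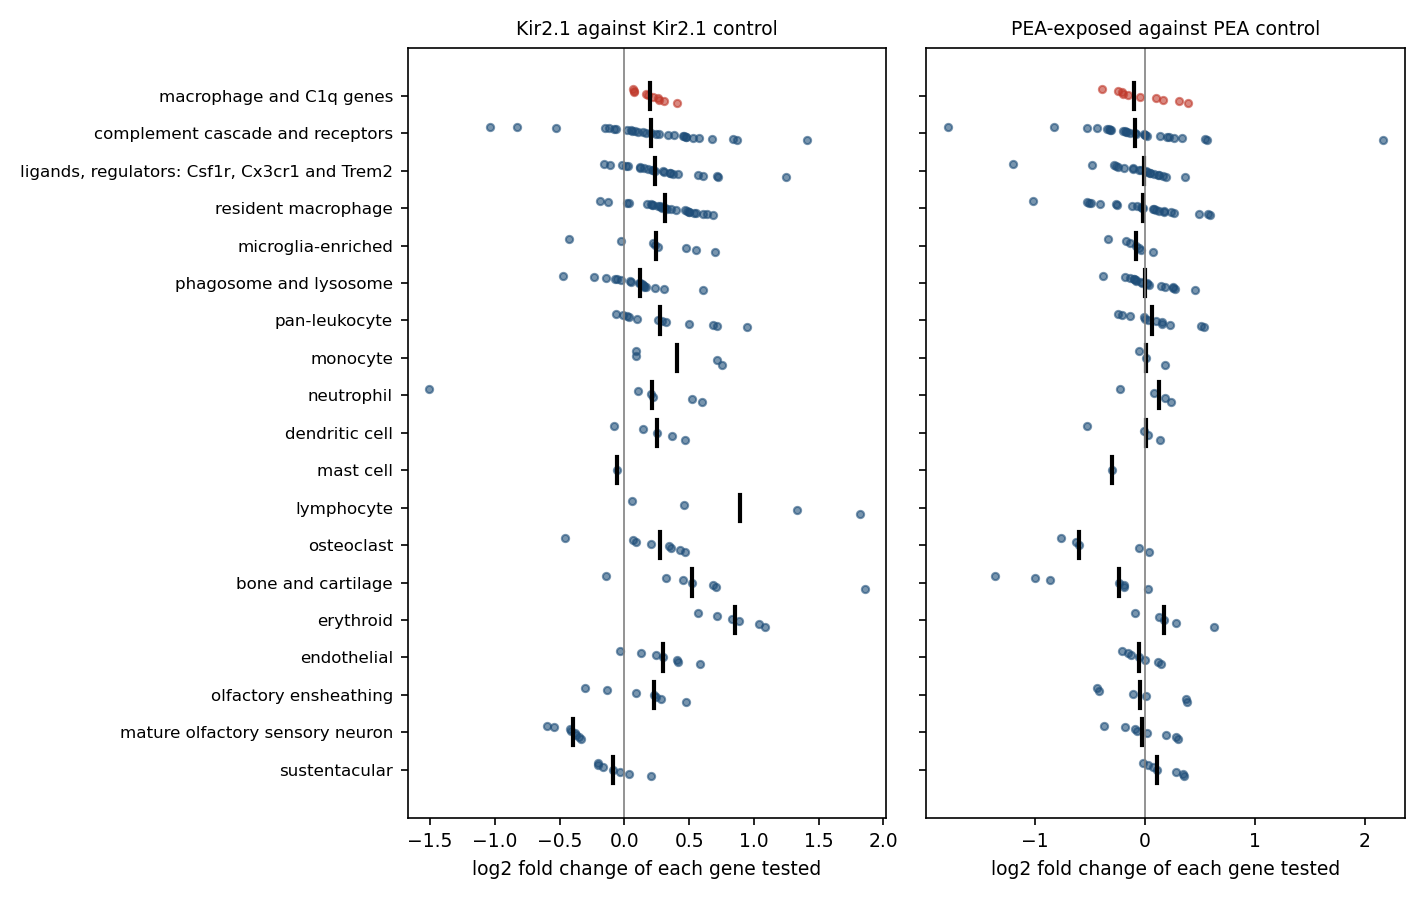
Log2 fold change of every tested gene of each gene list, Kir2.1 against control mice on the left and PEA-exposed against control mice on the right, with a separate horizontal scale for each. Points are genes, black bars are list medians, and the 10 macrophage and C1q genes are in red at the top. On the left most medians lie above 0 and that of mature olfactory sensory neurons lies at -0.40, while on the right most lie near 0.

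Exposure to PEA was the second comparison. None of the 10 genes passed an adjusted p of 0.05 (limma with Benjamini-Hochberg adjustment, adjusted p from 0.349 to 0.948), against 31 of 17322 genes (0.179%), and none had an unadjusted p under 0.05, against 15.0% of all genes tested. Fold changes were above 0 for 4 genes and below 0 for 6, where 46.5% of all genes tested were above 0. They ran from -0.39 (Trem2) to 0.40 (C1qa), with a median of -0.10 beside -0.02 over all genes. The groups overlapped for all 10, where 9.32% of all genes tested had groups that did not overlap. The intervals (95%) of 9 genes lay within 1 log2 unit of 0, and that of Trem2 did not (-1.25 to 0.47).

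C1qa again had the largest fold change of the C1q chains. Control mice 1 to 4 had values of 51.9, 44.5, 47.8 and 55.4, and PEA-exposed mice 1 to 4 had 55.2, 79.7, 74.0 and 57.3. All 4 exposed mice lay above the mean of the controls, and exposed mouse 1 fell just below control mouse 4 (log2 fold change 0.40 ± 0.19 SE, limma adjusted p = 0.349, p = 0.0571 by the exact two-sided permutation test, where 0.0286 is the smallest that 4 against 4 can give). C1qb was 46.4, 33.8, 54.8 and 40.3 in control mice and 38.4, 47.8, 41.2 and 40.9 in exposed mice, and all exposed mice lay inside the range of the controls (log2 fold change -0.04 ± 0.20 SE). C1qc was 39.4, 31.7, 38.1 and 28.1 in control mice and 45.5, 34.2, 58.9 and 35.8 in exposed mice, with exposed mice 1 and 3 above all controls (log2 fold change 0.32 ± 0.23 SE). None of the 3 chains passed, and their 95% intervals overlapped (-0.02 to 0.81 for C1qa, -0.50 to 0.41 for C1qb and -0.21 to 0.84 for C1qc).

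The receptors and the adaptor overlapped between the groups, and none passed the test. Csf1r was 311, 195, 233 and 216 in control mice and 190, 212, 261 and 191 in exposed mice (log2 fold change -0.15 ± 0.17 SE). Cx3cr1 was 96.9, 73.0, 96.5 and 114 in control mice and 103, 62.9, 79.8 and 84.3 in exposed mice (log2 fold change -0.21 ± 0.20 SE). Control mouse 1 was the highest for Csf1r and exposed mice 1 and 4 lay just below the lowest control, exposed mouse 2 was the lowest for Cx3cr1, and the groups overlapped for both. Trem2 was 11.8, 9.14, 18.5 and 13.3 in control mice and 5.38, 9.52, 10.4 and 14.9 in exposed mice (log2 fold change -0.39 ± 0.39 SE). Trem2 did not pass (limma adjusted p = 0.676), and whether its low values limited the comparison was not tested. Tyrobp was 134, 71.8, 81.0 and 93.0 in control mice and 102, 103, 116 and 94.4 in exposed mice, which lay closer together than the controls and within their range (log2 fold change 0.16 ± 0.20 SE).

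The 3 remaining markers gave no common direction. Aif1 was 39.4, 26.3, 36.1 and 18.9 in control mice and 27.5, 21.3, 25.5 and 23.4 in exposed mice, all inside the range of the controls (log2 fold change -0.25 ± 0.27 SE). Cd68 was 44.4, 27.8, 32.0 and 32.8 in control mice and 28.0, 47.7, 32.0 and 40.3 in exposed mice (log2 fold change 0.10 ± 0.24 SE). Adgre1 was 137, 107, 116 and 95.8 in control mice and 165, 82.1, 116 and 59.2 in exposed mice, so that the highest and the lowest of the 8 values were both from exposed mice (log2 fold change -0.20 ± 0.28 SE). Control mouse 2 was the lowest control for 7 of the 10 genes and control mouse 1 the highest for 6.

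**Figure D4:**
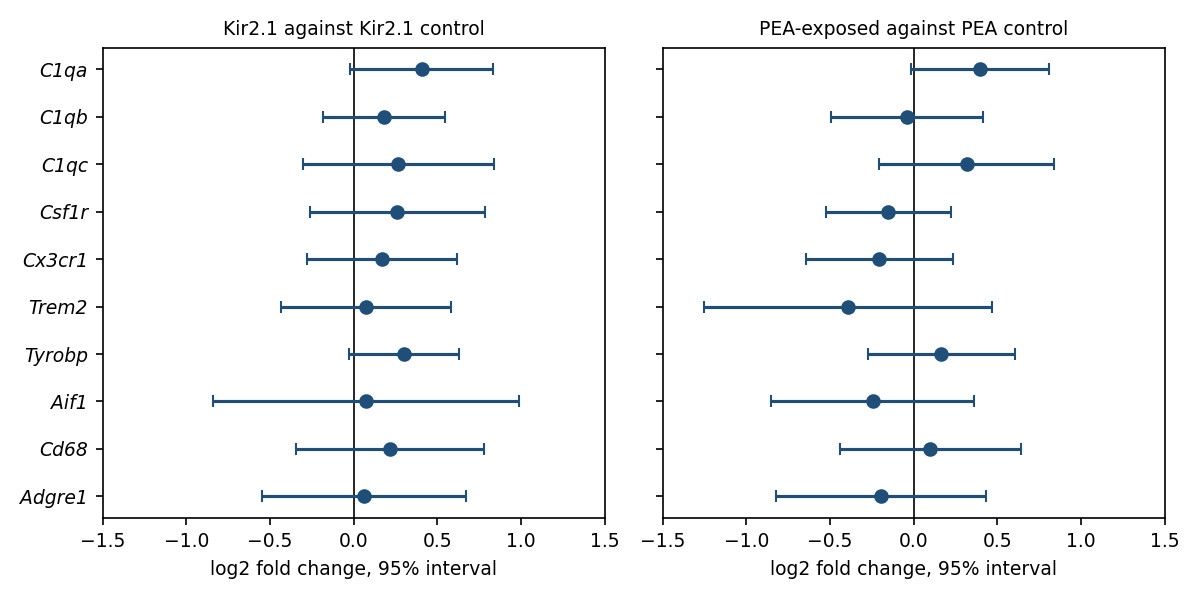
Log2 fold change of each of the 10 genes with its 95% interval from limma, Kir2.1 against control mice on the left (n = 3 per group) and PEA-exposed against control mice on the right (n = 4 per group). The vertical line marks no difference. All intervals on the left include 0 and stay within 1 of it, and on the right that of Trem2 reaches -1.25.

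The C1q chains were also compared as ratios within each mouse, which were singled out after the values were seen. The ratio of C1qa to C1qb was 1.12, 1.32, 0.872 and 1.38 in PEA control mice and 1.44, 1.67, 1.80 and 1.40 in exposed mice. Every exposed mouse exceeded every control mouse (means 1.17 ± 0.227 and 1.58 ± 0.188, SD over 4 mice each; p = 0.0286 by the exact two-sided permutation test, the smallest it can give, and 0.171 after Benjamini-Hochberg adjustment over 6 ratios). The difference therefore did not pass the adjustment. In the Kir2.1 experiment the same ratio was 0.757, 0.575 and 0.650 in control mice and 0.699, 0.759 and 0.851 in Kir2.1 mice, and the groups overlapped (exact permutation p = 0.2). The other 4 comparisons, of C1qa to C1qc and C1qb to C1qc in each experiment, overlapped as well, with adjusted p from 0.400 to 0.714 by the same exact permutation test.

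**Figure D5:**
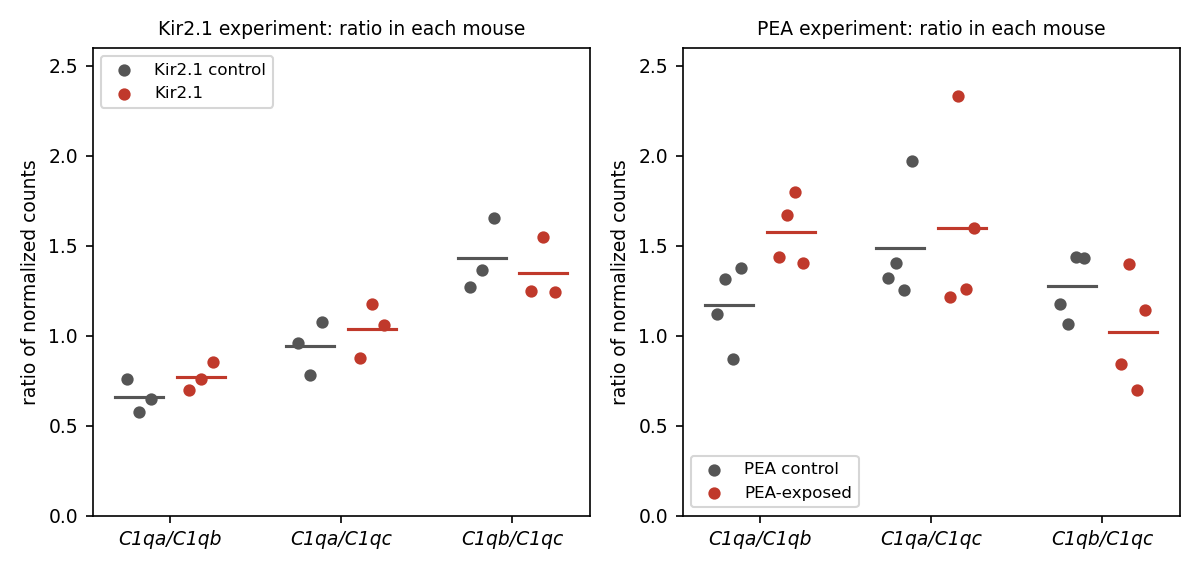
Ratio of the normalized counts of the C1q chains within each mouse, Kir2.1 experiment on the left (n = 3 per group) and PEA experiment on the right (n = 4 per group). Grey points are control mice, red points are Kir2.1 or PEA-exposed mice, and bars are group means. Only C1qa to C1qb in the PEA experiment has groups that do not overlap.

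The rest of the complement pathway gave no call after PEA exposure. Of 36 genes, 27 were tested, and none passed an adjusted p of 0.05 by limma. Of the 27, 4 had an unadjusted p under 0.05 (2 higher and 2 lower), against 15.0% of all genes tested. The median log2 fold change was -0.09. The smallest p-values were those of C1rl, a C1r-like protease (33.4 ± 13.2 and 8.74 ± 3.22, SD over 4 mice each; log2 fold change -1.79 ± 0.36 SE, adjusted p = 0.0864), and C1ra (143 ± 23.3 and 99.9 ± 18.6; log2 fold change -0.52, adjusted p = 0.218), both lower in every exposed mouse than in any control mouse. C1s1 was 349, 311, 394 and 376 in control mice and 356, 229, 333 and 239 in exposed mice, and the groups overlapped (log2 fold change -0.32 ± 0.16 SE, adjusted p = 0.385). C3 was 80.8, 56.9, 97.9 and 191 in control mice and 156, 161, 129 and 125 in exposed mice (log2 fold change 0.55 ± 0.31 SE).

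Of the 27 genes on the list of ligands and regulators, which also held others, 20 were tested after PEA exposure. None passed an adjusted p of 0.05 by limma. The median was -0.01, and 1 gene had an unadjusted p under 0.05 (15.0% over all genes). That gene was Spp1, which encodes osteopontin, a matrix protein of bone also made by activated macrophages. It was 3784, 1151, 1206 and 842 in control mice and 528, 747, 614 and 650 in exposed mice, so that every exposed mouse was lower than every control mouse and control mouse 1 was far above the rest (log2 fold change -1.20 ± 0.38 SE, limma adjusted p = 0.199). Without control mouse 1 the log2 fold change was -0.74 ± 0.16 SE (limma adjusted p = 0.116). Beside it, the summed value of 8 bone and cartilage genes was 3117 in control mouse 1, 1438 to 1578 in the other controls and 1135 to 1308 in exposed mice, and the median of 5 osteoclast genes was -0.59. Their part in the value of Spp1 was not tested. Csf1 was 142 ± 42.5 and 131 ± 34.4 and Cx3cl1 was 113.0 ± 40.1 and 127 ± 48.7, and Il34 and Spi1 did not pass the filter on low values.

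Of the 26 resident macrophage genes, 23 were tested after PEA exposure, and 11 had fold changes above 0 (46.5% over all genes). None passed an adjusted p of 0.05 by limma, 3 had an unadjusted p under 0.05 (15.0% over all genes), and the median was -0.01. Laptm5, a lysosomal protein of blood cells, was 38.6 ± 1.62 and 58.7 ± 11.7 (SD over 4 mice each; log2 fold change 0.57, adjusted p = 0.219), and F13a1, a transglutaminase of tissue macrophages, was 132 ± 31.3 and 90.9 ± 6.87 (log2 fold change -0.51, adjusted p = 0.240). These were the smallest p-values of the list and pointed in opposite directions. No gene of any other list passed, and the medians were 0.07 for 12 pan-leukocyte, 0.01 for 3 monocyte, 0.13 for 4 neutrophil, 0.01 for 4 dendritic cell, 0.18 for 5 erythroid, -0.05 for 7 endothelial and -0.02 for 8 mature olfactory sensory neuron genes. Further medians were -0.59 for 5 osteoclast, -0.23 for 7 bone and cartilage, -0.08 for 7 microglia-enriched and -0.05 for 6 olfactory ensheathing genes. Those of 7 sustentacular and 18 phagosome and lysosome genes were 0.11 and -0.0006, and the 1 mast cell gene tested, Hdc, was at -0.30. Of the 11 lymphocyte genes none passed the filter.

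Within groups the 10 genes did not vary as one block. Each was taken as its deviation from its group mean on the log2 scale in all 14 mice and correlated with the mean of the other 9. The correlations are a description only, because all genes came from the same libraries and the mice of a group share its mean. Csf1r (0.77) and Tyrobp (0.70) followed the others most closely, then Aif1 (0.51), C1qb (0.50), C1qa (0.43), Adgre1 (0.36), C1qc (0.34), Cd68 (0.31), Cx3cr1 (0.11) and Trem2 (-0.07). Pairs ran from -0.63 for Trem2 with Adgre1 to 0.78 for Csf1r with Tyrobp. These values pool 2 experiments that differed. C1qa with C1qb, C1qa with C1qc and C1qb with C1qc were at 0.72, 0.80 and 0.93 in the Kir2.1 experiment. In the PEA experiment they were at 0.39, -0.02 and 0.16. Adgre1 with the other 9 was at 0.85 and 0.11, while Csf1r (0.69 and 0.87) and Tyrobp (0.72 and 0.73) were high in both. The difference was not tested. Among 16695 other genes that passed the filter in both experiments, the 10 whose deviations were most like the mean of the macrophage and C1q genes were Cmtm3 (0.91), Fah (0.90), Myl9 (0.89), Arhgap10 (0.89), BC005624 (0.89), Pgm3 (0.88), Fcgr3 (0.88), Col3a1 (0.88), Zbp1 (0.88) and Ctla2a (0.88). Fcgr3, an Fc receptor of macrophages, was the only one of them on the resident macrophage list, while Myl9 and Col3a1 encode a smooth muscle myosin light chain and a fibrillar collagen.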

How the data were processed

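RNA of whole olfactory epithelia of 14 individual mice was sequenced in 2 experiments. The authors converted base calls with bcl2fastq 2.18, estimated transcript counts with Salmon 1.3.0 against Ensembl release 100 on GRCm38, summed them per gene with tximport and scaled them with DESeq2 1.30.0, each experiment on its own. What they deposited is thus a normalized signal for each gene, called normalized counts here, and neither whole reads nor the depth of a library can be read from them, so count tests were not run. The methods state a reverse-stranded Salmon setting for all libraries, while reads of the Kir2.1 experiment were unstranded, and its effect on their values is unknown.

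Columns were matched to mice by their labels. Within each experiment, genes with a mean of at least 10 entered the test. The groups were compared on log2(value + 1), without covariates, by limma 3.58.1 (R 4.3.3) using empirical Bayes moderation with its trend option, and p-values were adjusted by Benjamini-Hochberg over all genes tested (threshold 0.05). Exact two-sided permutation tests over mice were used for single values (Python 3.11.15, numpy 2.4.6, pandas 2.3.3, scipy 1.17.1; plots with matplotlib 3.10.9). Gene lengths, taken as the longest protein-coding transcript, and positions came from GENCODE vM21. The script was tested on simulated data. The 10 genes and the lists were chosen with earlier results of these data known. All 10 were named, and of each list those that passed and the 2 with the smallest p or the highest mean where shown. Some genes were named for their role (Csf1, Il34, Cx3cl1, Spi1, C3, C4b, Serping1). Others were picked outside these rules. Mrc1, Timd4, Lyve1, Folr2, Cd163 and Siglec1 were picked for their level, and C7 and Vsig4 for values of 0 in the Kir2.1 experiment. C1s2 was picked as the neighbour of C1s1, and C1ra after its values were seen. No library column was identical to another. Alternatives were other pseudocounts and filters, limma without a trend or robust, other scalings, a replicate block, covariates for vomeronasal genes and Xist, a threshold of 0.1 and each mouse left out.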

Additional observations from a re-analysis of the deposited data

Results flagged for a closer look

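In the PEA experiment 4 of 60 sets of values from 1 group (genes named in the text, ratios and sums) held a mouse whose gap to the nearest of the other 3 exceeded Dixon's 95% limit, where chance gives about 1 in 20. PEA control mouse 1 stood apart for Spp1, at 3784 against 842 to 1206 in the other controls, and for the sum of the bone and cartilage genes, at 3117 against 1438 to 1578. PEA-exposed mouse 1 stood apart for Csf1, at 182 against 108 to 119 in the other exposed mice, and PEA-exposed mouse 3 for Cx3cl1, at 199 against 94.3 to 109. None of the macrophage and C1q genes held such a value. Groups of 3 mice, as in the Kir2.1 experiment, were not tested this way.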

How the results depend on the processing

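The count of 0 macrophage and C1q genes past the threshold held in both comparisons under every alternative run, and their median log2 fold change stayed between 0.14 and 0.28 in the Kir2.1 comparison and between -0.19 and 0.01 in the PEA comparison. The count over all genes was less stable. Against 70 genes in the Kir2.1 comparison it was 20 by limma without a trend, 22 with the vomeronasal covariate, 44 with the Xist covariate and 171 at a threshold of 0.1, and it ran from 23 to 44 with each mouse left out in turn. Against 31 genes in the PEA comparison it was 52 without a filter, 20 with the vomeronasal covariate and 128 at a threshold of 0.1, and it ran from 19 to 43 with each mouse left out. The cause was not tested.

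Fold changes of single genes turned in sign in a few cases, none of them past the threshold. With each mouse left out, those of the Kir2.1 comparison ran from -0.34 (without control mouse 2) to 0.32 for Aif1, from -0.034 (without control mouse 2) to 0.41 for Cd68, from -0.20 (without control mouse 2; -0.068 without Kir2.1 mouse 1) to 0.25 for Adgre1 and from -0.068 (without Kir2.1 mouse 3; -0.040 without control mouse 3) to 0.16 for Trem2, and Aif1 was also at -0.12 without Kir2.1 mouse 3. Those of the PEA comparison ran from -0.16 to 0.071 (without control mouse 3; 0.00055 without exposed mouse 1) for C1qb, from -0.030 (without exposed mouse 2) to 0.23 for Cd68 and from -0.44 to 0.044 (without exposed mouse 4) for Adgre1, which was at 0.073 with the vomeronasal covariate. Spp1 in the Kir2.1 comparison, at 0.22, ran from -0.10 (without control mouse 2; -0.036 without control mouse 1) to 0.80 and was at -0.037 with the vomeronasal covariate. The rise of C1s1 in Kir2.1 mice kept its direction throughout, and its adjusted p was 0.119 by limma without a trend, 0.157 with the vomeronasal covariate and 0.0878 with the Xist covariate, and between 0.0341 and 0.0451 under the other pseudocounts, filters and scalings and by robust limma.

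Same-numbered mice shared only a number. The correlation of their deviations was -0.0585, -0.0106 and 0.155 for the 3 Kir2.1 pairs and 0.135, -0.02, -0.0506 and 0.101 for the 4 PEA pairs. With the replicate block the count over all genes was 9 in the Kir2.1 comparison and 23 in the PEA comparison, the adjusted p of C1s1 in Kir2.1 mice was 0.15, and the count of macrophage and C1q genes called stayed at 0. With a mean of at least 50 required, 5 of the 10 genes remained in the PEA comparison. Values near 10, as for Trem2 in the PEA experiment, may limit what can be detected, and the number of reads behind them is unknown.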

Other observations

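Phagosome and lysosome genes, which macrophages share with sustentacular cells and neurons, gave no call. In the Kir2.1 experiment none of 18 passed an adjusted p of 0.05 by limma. An unadjusted p under 0.05 was reached by 3 with higher values in Kir2.1 mice and 2 with lower values (11.1% over all genes). Mfge8, a bridge between dying cells and phagocytes, was 3793 ± 135 in control mice and 2752 ± 433 in Kir2.1 mice (SD, n = 3 per group), while Pros1, another such bridge, was 376 ± 72.3 and 572 ± 102. In the PEA experiment Mfge8 was 280 ± 46.2 in control mice and 382 ± 38.4 in exposed mice (SD, n = 4 per group) and did not pass an adjusted p of 0.05 by limma. The difference between the experiments was not tested. Among the microglia-enriched genes, Olfml3 was 951 ± 202 and 1530.4 ± 169 and Sall1 was 2768 ± 80.4 and 2739 ± 389 in control and Kir2.1 mice, both far above P2ry12 at 23.6 ± 13.8 and 25.9 ± 2.80 (SD, n = 3 per group, not divided by length).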
